A study of Mus musculus with 8 samples.

Results

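The genes described here encode the nuclear subunits of the respiratory chain and of ATP synthase, with some assembly factors that carry the same name stems. They were chosen by symbol: every gene with a probe set annotated to 1 symbol that starts with Nduf, Uqcr, Sdh, Cox4, Cox5, Cox6, Cox7, Cox8 or Atp5, leaving out Cox6a2 and pseudogenes marked -ps. This gave 90 of the 22180 genes on the array, each read through its brightest probe set. They comprise 34 subunits and 8 assembly factors of complex I, 4 subunits and 4 assembly factors of complex II, 7 subunits of complex III, 16 of complex IV and 17 of complex V, the ATP synthase. Symbols were assigned to complexes by name alone. Ndufa4, now counted with complex IV, and its paralog Ndufa4l2 therefore stand under complex I in all counts and medians by complex. A further 10 probe sets of these families read several symbols and were not used, so Cox6c, for example, is not described.

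The study measured total RNA of the thoracic annulus fibrosus, the fibrous outer ring of the intervertebral disc, from Black 6 mice. Mice without ENT1 carried a deletion of exons 2 to 4 of Slc29a1, which encodes a transporter that carries adenosine across the cell membrane, and were compared with WT mice at 2 and at 6 months of age. The resulting 4 groups held 2 arrays each and are named by age and genotype. Each array was made from a pool of 5 to 6 thoracic annulus tissues. The labels leave unsaid if arrays of 1 group stem from different animals, so p-values measure only the spread between these pools. The labels name no tissue-specific driver of the deletion.

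The respiratory chain passes electrons from NADH (complex I) and succinate (complex II) through complex III to oxygen at complex IV, and the proton gradient it builds drives ATP synthesis by complex V. Its subunits are encoded partly in mitochondrial and mostly in nuclear DNA. Some complex IV subunits exist as isoforms, such as the muscle forms Cox7a1 and Cox8b and the low-oxygen form Cox4i2. The annulus is a poorly vascularised tissue whose cells are known to rely largely on glycolysis.

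Promoter sequences are given first, for 3 genes that rose at 6 months and for the muscle isoforms. RefSeq promoter windows on GRCm38.p6, from 250 bases before to 50 bases after the start, matched 76 of the 90 genes. In these windows 4 motifs were searched on both strands, each known as the binding sequence of a factor linked to respiratory genes. They were NRF1 (GCGC, any 2 bases, GCGC), ETS/GABP (CCGGAAG), YY1 (AAGATGGCG) and ERR (AAGGTCA). No motif lies within another. NRF1 letters stood in 21 of the 76 (27.6%) against 7.0% of all 27025 genes with a window. ETS/GABP letters stood in 22 (28.9%, against 9.93%), YY1 letters in 7 (9.21%, against 1.64%) and ERR letters in 6 (7.89%, against 5.38%). At least 1 of the 4 stood in 43 of the 76 (56.6%), against 21.3% of all genes. By complex these were 15 of 30 genes in complex I, 3 of 3 in complex II, 3 of 4 in complex III, 3 of 13 in complex IV and 11 of 15 in complex V, with 4 of 7 complex I and 4 of 4 complex II assembly factors; complex IV was thus near the share over all genes. Matches stood in genes of both directions of change in ENT1-null annulus at 6 months. Of the 13 genes that rose, 12 had a window and 8 of these a motif, while Ndufa3, Atp5d, Atp5b and Cox6b2 had none. Of the 4 that fell, 2 had a window, Ndufa11 and Sdhaf4, and both held an NRF1 match. The stretches printed here are the 170 bases before the start of Cox6a1, Ndufb7 and Atp5h, the 3 rises that passed whichever array was left out, and of the 2 muscle isoforms. They were chosen with these results known and do not stand for all genes that rose. Motif letters are in capitals.
Cox6a1 (chr5:115348959-115349128, minus strand): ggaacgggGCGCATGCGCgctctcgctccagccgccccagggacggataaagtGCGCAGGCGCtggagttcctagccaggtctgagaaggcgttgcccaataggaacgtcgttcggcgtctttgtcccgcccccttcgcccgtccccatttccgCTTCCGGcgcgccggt
Ndufb7 (chr8:83566588-83566757, plus strand): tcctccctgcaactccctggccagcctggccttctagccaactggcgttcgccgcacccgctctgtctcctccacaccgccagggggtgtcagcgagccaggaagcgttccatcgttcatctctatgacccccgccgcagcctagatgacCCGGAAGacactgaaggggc
Atp5h (chr11:115419920-115420089, minus strand): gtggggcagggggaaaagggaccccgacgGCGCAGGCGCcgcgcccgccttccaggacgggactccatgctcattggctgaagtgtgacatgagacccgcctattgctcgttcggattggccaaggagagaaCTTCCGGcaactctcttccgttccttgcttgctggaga
Cox7a1 (chr7:30184001-30184170, plus strand): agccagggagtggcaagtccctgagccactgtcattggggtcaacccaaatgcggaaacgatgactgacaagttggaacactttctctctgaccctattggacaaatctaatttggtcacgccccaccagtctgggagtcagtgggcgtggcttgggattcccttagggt
Cox8b (chr7:140900447-140900616, minus strand): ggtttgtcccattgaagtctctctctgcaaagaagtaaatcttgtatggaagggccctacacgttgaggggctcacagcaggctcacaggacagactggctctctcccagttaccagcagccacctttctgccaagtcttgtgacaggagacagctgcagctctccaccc
The Cox6a1 stretch held 2 NRF1 matches and 1 ETS/GABP match, that of Ndufb7 1 ETS/GABP match, and that of Atp5h 1 of each. The stretches of Cox7a1 and Cox8b held 0 matches to the 4 motifs, which says only that these letters are not in them.

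Slc29a1, the targeted gene, was lower on every ENT1-null array than on any WT array. Its level was 10.71 and 10.69 (log2, as for all levels here) in 2 month WT, 9.21 and 9.36 in 2 month ENT1-null, 10.34 and 10.43 in 6 month WT, and 8.90 and 8.80 in 6 month ENT1-null; where its probes lie relative to the deleted exons was not analysed here. All 14 annulus and cartilage markers passed the filter on low values, with a mean level of 10.09 to 11.28 per array. Markers of other tissues were present too and differed between the groups. The mean of 24 skeletal muscle markers was 7.71 and 8.75 in 2 month WT, 8.32 and 9.71 in 2 month ENT1-null, 9.68 and 9.61 in 6 month WT, and 7.16 and 8.08 in 6 month ENT1-null. The mean of 18 neutrophil markers ran from 8.43 to 9.86 in WT and from 10.54 to 11.64 in ENT1-null arrays, and that of 8 erythroid markers from 7.24 to 8.31 and from 8.63 to 10.04. In tissue RNA of this kind, fewer cells of a type and less RNA per cell cannot be told apart.

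Of the 90 genes, 88 passed the filter, a mean of at least 6.21 over the 8 arrays. The testis forms Cox7b2 (3.69 to 4.12) and Cox8c (4.94 to 5.33) stayed below it on every array. Averaged over the 88 genes, the level lay 0.17 and 0.03 below the 8-array mean in 2 month WT, and 0.08 below and 0.10 above it in 2 month ENT1-null. It lay 0.02 above and 0.04 below it in 6 month WT, and 0.14 and 0.06 above it in 6 month ENT1-null. The ENT1-null arrays were thus above both WT arrays at 6 months, whereas at 2 months the WT and ENT1-null arrays overlapped. Replicates differed as well. In 2 month ENT1-null, replicate 2 was above replicate 1 in 69 of the 88 genes, by a median of 0.17, against 59% of all genes, and in 2 month WT in 67, by a median of 0.13, against 58.5%. In 6 month ENT1-null the order was turned, with replicate 2 below replicate 1 in 63 of the 88, by a median of 0.08 (28.4% above, against 48.7% of all genes). Replicate 2 was the array with more muscle marker signal in all 3 of these groups, so the muscle markers moved with the 88 genes at 2 months and against them in 6 month ENT1-null. The neutrophil markers moved with them in all 3, but by a small gap in 6 month ENT1-null. There replicate 2 minus replicate 1 had a median of -0.09, against 1.15 in 2 month WT and 0.42 in 2 month ENT1-null. Their mean was 8.56 and 9.80 in 2 month WT, 10.54 and 10.91 in 2 month ENT1-null, and 11.64 and 11.56 in 6 month ENT1-null. In 6 month WT replicate 2 was below replicate 1 in 60 of the 88 (31.8% above, against 51.8% of all genes). The median gap there was 0.06, with neutrophil means of 9.86 and 8.43 and muscle means of 9.68 and 9.61. The erythroid mean moved with the 88 genes in both WT groups. It moved against them in ENT1-null, at 8.74 and 8.63 at 2 months and 9.73 and 10.04 at 6 months. The part of these markers in this spread was not tested.

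**Figure D1:**
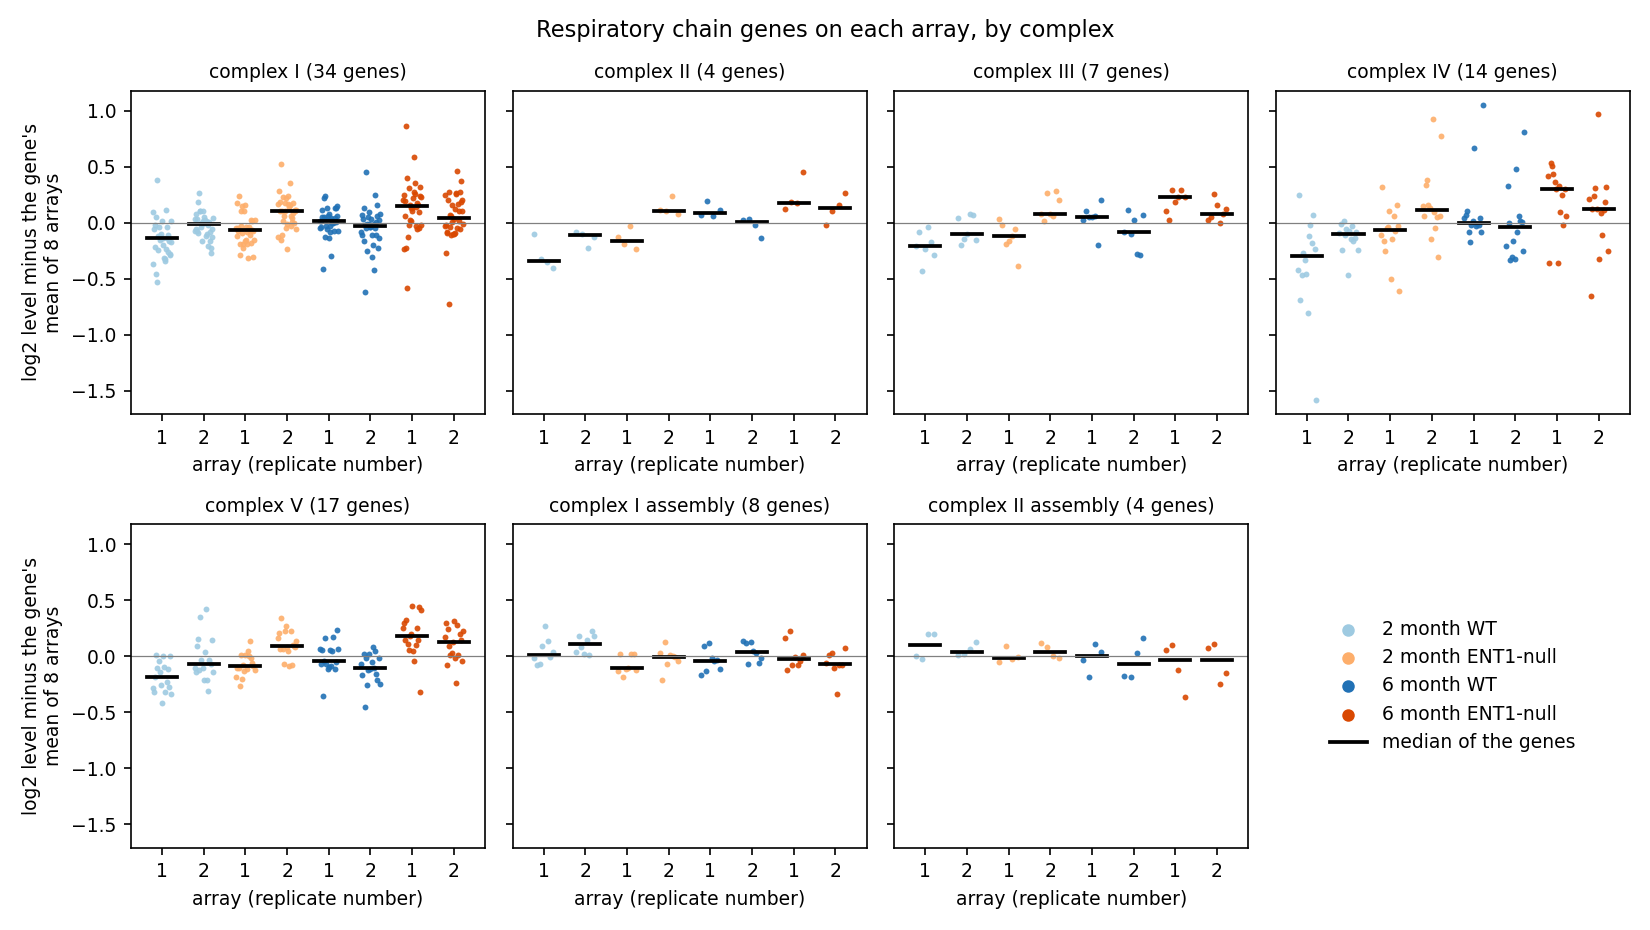
Level of each respiratory chain gene (log2, minus the gene's own mean of the 8 arrays; points) on each array, by complex, with the median of the genes as a black line. The medians of complexes I to V are lowest in 2 month WT replicate 1 and highest in 6 month ENT1-null replicate 1. Those of the assembly factors follow another order, from -0.11 in 2 month ENT1-null replicate 1 to 0.11 in 2 month WT replicate 2 for complex I.

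At 2 months the subunits of all 5 complexes were mostly a little higher in ENT1-null annulus, and the assembly factors mostly a little lower, but 0 of the 88 genes passed the test. The comparison asks whether loss of ENT1 goes with a change in young annulus. limma with Benjamini-Hochberg adjustment called 0.683% of the 15526 genes tested, and 9 of the 88 had an unadjusted p below 0.05 (8 higher, 1 lower), against 19.4% of all genes. The median difference, ENT1-null minus WT, was 0.12, against -0.04 over all genes tested, and 66 of the 88 (75%) were above 0, against 39.6% of all genes. Of the 76 subunits 64 were above 0, and of the 12 assembly factors 2. The medians were 0.10 for complex I, 0.18 for complex II, 0.14 for complex III, 0.24 for complex IV and 0.16 for complex V, and -0.12 for the complex I and -0.06 for the complex II assembly factors. The arrays of both groups stood apart with ENT1-null higher in 26 genes, against 19.0% of all genes, and with ENT1-null lower in 9, against 33.2%.

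The largest statistics at 2 months belonged to a membrane anchor of complex II and to parts of ATP synthase. Sdhc, the anchor, was at 8.40 and 8.53 in WT against 8.73 and 8.99 in ENT1-null, a difference of 0.39 ± 0.11 (SE, n = 2 arrays per group; limma, adjusted p = 0.11). Atp5h, subunit d of the peripheral stalk, was at 9.54 and 9.74 in WT against 9.97 and 10.04 in ENT1-null, a difference of 0.36 ± 0.10 (adjusted p = 0.11). Atp5k, subunit e of the membrane part, was at 8.23 and 8.33 against 8.55 and 8.77. Its difference was 0.38 ± 0.11 (adjusted p = 0.13). In these 3 genes both ENT1-null arrays were above both WT arrays, as in 19.0% of all genes tested. On the other side stood Ndufa4l2, a paralog of Ndufa4 that is induced in low oxygen, at 10.48 and 10.36 in WT against 10.20 and 9.98 in ENT1-null (-0.33 ± 0.12, adjusted p = 0.19). The complex I assembly factors Ndufaf8, Ndufaf5 and Ndufaf4 differed by -0.19, -0.26 and -0.14, and all 8 factors of this kind were below 0. The median over the 88 genes rests on single ENT1-null arrays: it was 0.01 without replicate 2 and 0.22 without replicate 1. With the neutrophil and erythroid markers as a covariate it was -0.04.

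At 6 months 13 respiratory chain genes rose and 4 fell in ENT1-null annulus, a smaller share called than among all genes tested. The comparison asks the same question in adult annulus. The 17 called genes were 19.3% of the 88, where limma called 38.8% of all genes tested (21.2% higher, 17.6% lower), so the share called was below the background. A further count at an unadjusted p below 0.05 gave 27 of the 88, against 48.4% of all genes. The median difference was 0.12, against -0.03 over all genes, and 60 of the 88 (68.2%) were above 0, against 47.1% of all genes. The arrays stood apart with ENT1-null higher in 45 genes, against 35.6% of all genes, and with ENT1-null lower in 14, against 36.8%. By complex the medians were 0.08 for complex I (3 rose and 2 fell of 34), 0.09 for complex II (0 of 4), 0.13 for complex III (1 rose of 7), 0.27 for complex IV (3 rose and 1 fell of 14) and 0.21 for complex V (5 rose of 17). The assembly factors had a median of -0.04 for complex I (0 of 8) and -0.04 for complex II (1 rose and 1 fell of 4).

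These calls rest on few arrays. Ndufa4l2, Ndufb7, Cox6a1 and Atp5h passed whichever of the 8 arrays was left out, and the other 13 did not pass in at least 1 of these fits. Without 6 month WT replicate 1 the count was 9, without 6 month WT replicate 2 it was 4, and without either 6 month ENT1-null array it was 8. With the skeletal muscle markers as a covariate 15 genes passed, 10 of them among the 17, and with the neutrophil and erythroid markers as a covariate 0 genes passed, of the 88 or of all genes tested. The muscle covariate ended the calls of Atp5mpl, Cox6b2, Ndufa11, Ndufa3, Sdhaf2, Sdhaf4 and Uqcrh. The fit of the 6 month arrays alone ended those of Atp5mpl, Cox6b2, Ndufa11 and Sdhaf4, and a replicate block those of Atp5mpl, Ndufa11, Ndufa3 and Uqcrh. The 4 groups accounted for a share of 0.862 of the variance of the neutrophil and erythroid level and for 0.709 of that of the muscle level.

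**Figure D2:**
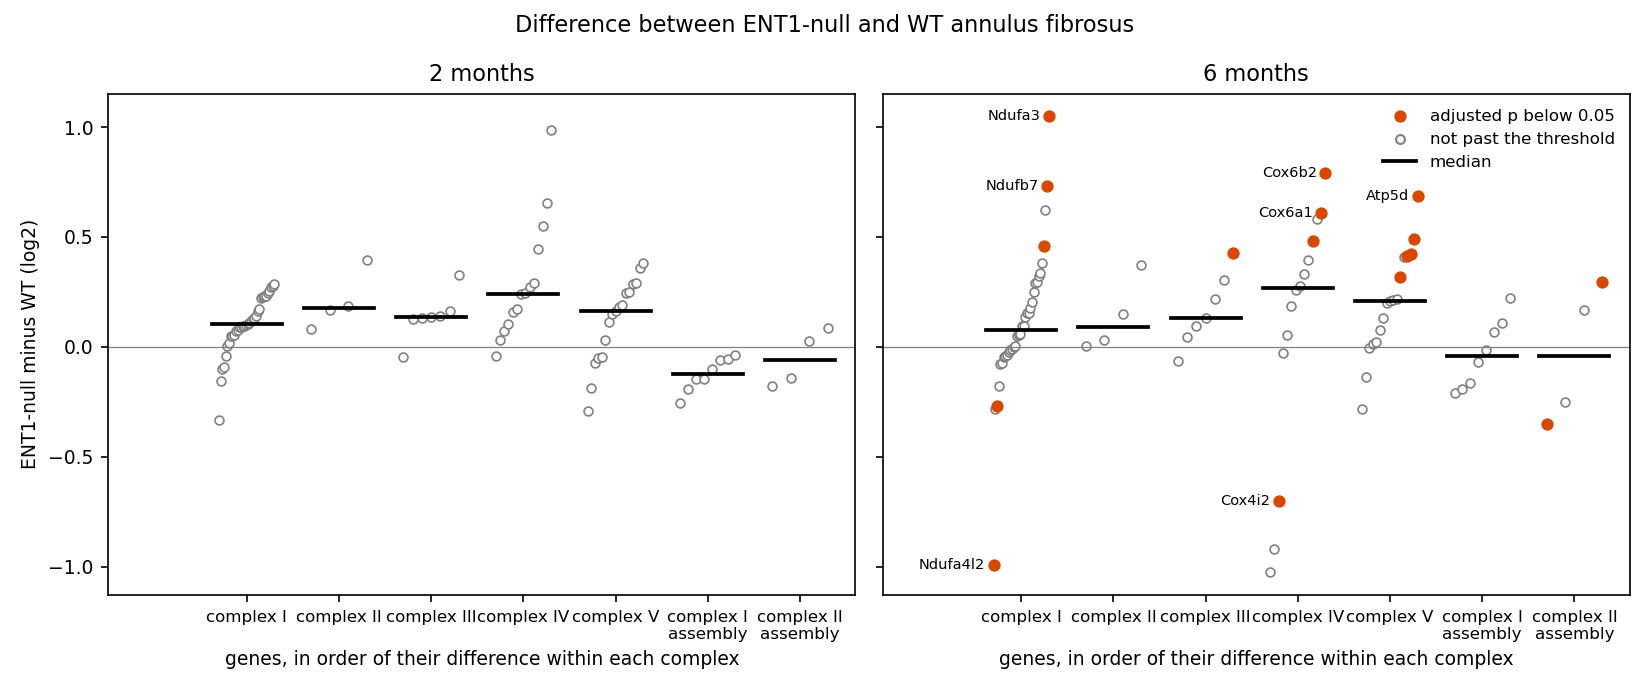
Difference between ENT1-null and WT (log2, vertical axis) for each of the 88 genes at 2 months (left) and 6 months (right), grouped by complex, with the median as a black line; filled points passed an adjusted p of 0.05 in limma. At 2 months 0 genes passed, and at 6 months the filled points reach from Ndufa4l2 at -0.99 to Ndufa3 at 1.05.

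Among the genes named for complex I were the largest rise and the largest fall of the 17 called, Ndufa3 and Ndufa4l2. Ndufa3, a small accessory subunit, was at 9.72 and 9.51 in 6 month WT and at 10.99 and 10.34 in 6 month ENT1-null, a difference of 1.05 ± 0.33 (SE, n = 2 per group; adjusted p = 0.038), or 2.07-fold. The ENT1-null arrays were both higher but lay far apart. Without 6 month ENT1-null replicate 1 the difference was 0.72, and the call was lost, as it was without either 6 month WT array. It was also lost with renewed quantile normalisation, trended and robust variance, a replicate block and either covariate. Ndufb7, an accessory subunit of the membrane arm, was at 8.02 and 8.01 in WT against 8.91 and 8.58 in ENT1-null. The WT arrays nearly coincided and both ENT1-null arrays were above them, a difference of 0.73 ± 0.15 (adjusted p = 0.0075). Ndufs8, a core subunit that carries iron-sulfur clusters, was at 9.40 and 9.16 against 9.71 and 9.76 (0.46 ± 0.11, adjusted p = 0.013). It was the only called one of the 6 complex I subunits in the list of catalytic core subunits; the others, Ndufs1, Ndufs3, Ndufs7, Ndufv1 and Ndufv2, differed by 0.05, -0.02, -0.08, 0.13 and 0.20.

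The 2 genes with complex I names that fell were Ndufa4l2 and Ndufa11. Ndufa4l2 was at 10.32 and 10.54 in 6 month WT and at 9.51 and 9.37 in 6 month ENT1-null, a difference of -0.99 ± 0.12 (adjusted p = 0.00080), or 1.99-fold lower. It had the largest statistic of the 88 genes, and the lowest and highest arrays of the groups were well apart. Its general counterpart Ndufa4, which is now counted with complex IV, was at 7.96 and 7.89 against 8.32 and 8.18 and did not pass (0.32 ± 0.16, adjusted p = 0.15). Ndufa11, which helps to hold the membrane arm together, was at 10.33 and 10.44 against 10.13 and 10.10 (-0.27 ± 0.09, adjusted p = 0.0497). That call was lost in each of the 8 fits without an array, and a second, dimmer probe set of Ndufa11 differed by -0.15. The complex I assembly factor with the largest statistic, Ndufaf4, was at 7.48 and 7.49 against 7.29 and 7.26 (-0.21 ± 0.08, adjusted p = 0.063).

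The 4 complex II subunits, which also serve the citric acid cycle, gave 0 calls at 6 months, with differences from 0.0014 to 0.37. Its catalytic subunits Sdha and Sdhb were the closest to 0: Sdhb was at 8.68 and 8.52 in WT against 8.67 and 8.59 in ENT1-null, and the groups overlapped. Of its assembly factors, Sdhaf2, which attaches the flavin to Sdha, rose, at 8.28 on both WT arrays against 8.57 and 8.58 (0.29 ± 0.07, adjusted p = 0.017). Sdhaf4, which helps Sdha join Sdhb, fell, at 6.92 and 7.04 against 6.52 and 6.74 (-0.35 ± 0.10, adjusted p = 0.025). Both calls were lost without either 6 month WT array or without 6 month ENT1-null replicate 1, and that of Sdhaf2 also without replicate 2. In complex III, Uqcrh, the hinge protein beside cytochrome c1, rose from 7.88 and 7.78 to 8.36 and 8.15 (0.43 ± 0.14, adjusted p = 0.048), a call lost in 6 of the 8 fits without an array. The core protein Uqcrc1 and the Rieske protein Uqcrfs1 differed by 0.30 and 0.22 and did not pass.

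In complex IV, 2 general subunits rose, and of the alternative isoforms 1 rose and 1 fell. All 7 genes in the list of general isoforms, Ndufa4 included, had a positive difference at 6 months, with a median of 0.33. Over all genes tested 47.1% were above 0. Cox6a1, the form of subunit VIa found in most tissues, was at 11.37 and 11.23 in 6 month WT and at 11.97 and 11.85 in 6 month ENT1-null. The gap between the groups was larger than that within either, and the difference was 0.61 ± 0.11 (adjusted p = 0.0041), or 1.53-fold. Cox8a, the general form of subunit VIII, was at 11.49 and 11.32 against 11.88 and 11.90 (0.48 ± 0.10, adjusted p = 0.0067). Among the fits without an array, its call was lost only without 6 month WT replicate 2, with a difference of 0.40. It was also lost with the neutrophil and erythroid covariate. The other general forms, Cox4i1, Cox6b1, Cox7a2 and Cox7b, differed by 0.40, 0.33, 0.26 and 0.19 with adjusted p from 0.079 to 0.13. In each of them both ENT1-null arrays were above both WT arrays, as in 35.6% of all genes tested, and none passed the test. Cox6b2, a form known from testis, rose as well, at 7.25 and 6.91 against 7.53 and 8.21 (0.79 ± 0.22, adjusted p = 0.024), a call that did not survive leaving out replicate 2 of either genotype. Without that of ENT1-null the difference was 0.45.

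Cox4i2, the form of subunit IV that replaces Cox4i1 in low oxygen, fell. It was at 10.46 and 10.72 in 6 month WT and at 10.04 and 9.74 in 6 month ENT1-null, a difference of -0.70 ± 0.16 (adjusted p = 0.010). Both ENT1-null arrays were below all 6 other arrays, which ran from 10.39 to 10.72. Leaving out replicate 2 of WT (-0.57) or of ENT1-null (-0.56) ended the call. The annulus and cartilage markers moved in the same direction: 12 of 14 fell at 6 months, with a median of -0.83, and their mean per array was 10.90 and 10.98 in WT against 10.23 and 10.09 in ENT1-null. Their part in the lower Cox4i2 and Ndufa4l2 was not tested.

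The muscle isoforms were higher on the arrays with more muscle marker signal in 3 of the 4 groups for Cox8b and in all 4 for Cox7a1. At 6 months this order rests on small gaps. In WT the muscle marker mean was 9.68 and 9.61. In ENT1-null Cox7a1 was at 7.43 and 7.46, where the muscle marker mean was 7.16 and 8.08. Cox8b was at 7.10 and 8.44 in 2 month WT, 8.07 and 9.45 in 2 month ENT1-null, 9.73 and 9.49 in 6 month WT, and 8.74 and 8.43 in 6 month ENT1-null. In each 2 month group its replicates lay more than 1 unit apart. In 6 month ENT1-null it was higher on replicate 1, the array with less muscle signal (7.16 against 8.08). Brown adipocytes are also known to express Cox8b and Cox7a1. The mean of 5 brown adipocyte markers was 8.08 and 7.62 in 6 month ENT1-null and 7.85 and 7.15 in 6 month WT. It was 6.83 and 7.34 in 2 month WT, and 7.01 and 7.32 in 2 month ENT1-null. Within each group this is the same order of replicates as for Cox8b. Between the 6 month groups these means overlapped, while Cox8b was lower on both ENT1-null arrays. The difference at 6 months was above 0 for 3 of the 5 markers and below 0 for 2 of these markers. Their part in these levels was not tested. The difference of Cox8b was 0.99 ± 0.51 at 2 months (adjusted p = 0.34) and -1.03 ± 0.51 at 6 months (adjusted p = 0.15). Cox7a1 was at 6.98 and 7.71, 7.29 and 8.72, 8.46 and 8.27, and 7.43 and 7.46 in the same order of groups. Its difference was 0.65 ± 0.42 at 2 months (adjusted p = 0.44) and -0.92 ± 0.42 at 6 months (adjusted p = 0.12). Neither isoform passed at either age, and at 6 months both ENT1-null arrays were below both WT arrays, as in 36.8% of all genes tested. With only the 6 month arrays in the fit, which leaves out the wide spread of the 2 month groups, both were called lower at 6 months, and Cox7a1 was also called without either 2 month ENT1-null array. Of the 24 skeletal muscle markers 20 fell at 6 months, with a median of -2.16. With these markers as a covariate the difference at 6 months was 0.57 for Cox8b and 0.54 for Cox7a1, so the sign turned. Cox6a2, the muscle partner of Cox6a1 that the symbol rule leaves out, was at 7.82, 8.51, 8.60 and 9.47 at 2 months, at 9.64 and 9.73 in 6 month WT, and at 7.79 and 8.30 in 6 month ENT1-null.

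**Figure D3:**
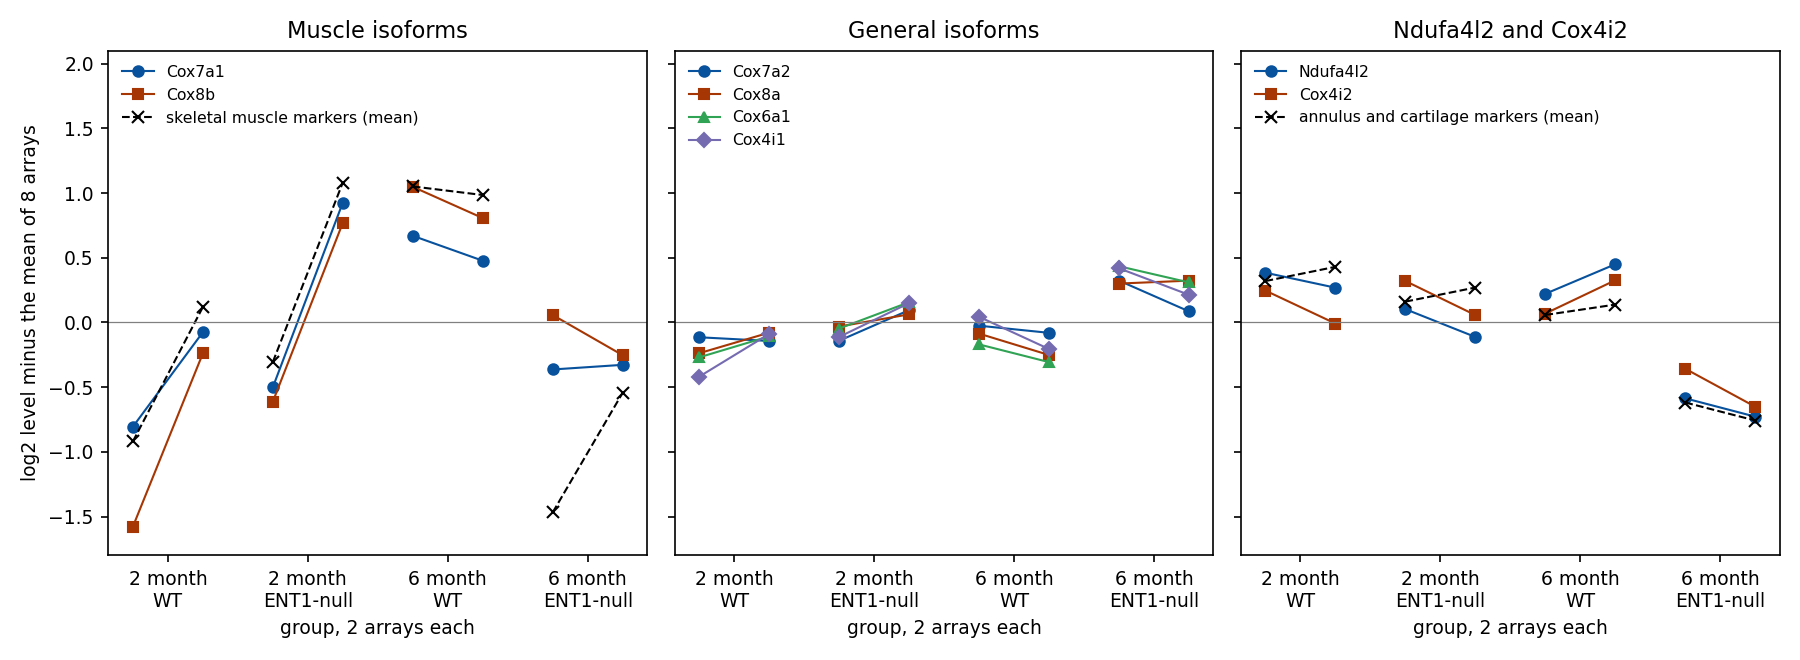
Level of complex IV isoforms and Ndufa4l2 on each array (log2, minus the mean of the 8 arrays), by group, with the mean of a marker list as a dashed line; lines join the 2 arrays of a group. Cox7a1 and Cox8b spread over more than 1 unit, with Cox8b and the muscle markers in opposite order within 6 month ENT1-null; the general forms are highest in 6 month ENT1-null, and Ndufa4l2 and Cox4i2 are lowest there.

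In complex V, 5 of 17 genes rose and 0 fell at 6 months. The share called, 29.4%, was below the 38.8% of all genes tested that were called in either direction (21.2% higher, 17.6% lower). All 5 were rises. Among only 17 genes, the gap between this share and the 21.2% called higher rests on few genes and was not tested. Atp5h had the largest statistic of the complex, at 9.86 and 9.84 in 6 month WT and 10.40 and 10.27 in 6 month ENT1-null (0.49 ± 0.10, adjusted p = 0.0063). A second, dimmer probe set of Atp5h differed by -0.04 at 6 months, so the 2 probe sets disagree. Atp5d, the delta subunit of the central stalk, was at 9.50 and 9.40 against 10.18 and 10.10 (0.69 ± 0.18, adjusted p = 0.020), and its second probe set differed by 0.97. The 6 month ENT1-null arrays of Atp5d were no higher than 2 month ENT1-null replicate 2, at 10.20. Atp5b, the catalytic beta subunit, was at 12.03 and 11.93 in WT and at 12.40 on both ENT1-null arrays (0.42 ± 0.12, adjusted p = 0.029). Its partner in the catalytic head, the alpha subunit Atp5a1, differed by 0.22 and did not pass. The small membrane subunits Atp5md and Atp5mpl rose by 0.32 ± 0.08 (adjusted p = 0.021) and 0.42 ± 0.13 (adjusted p = 0.037). Of these 5, Atp5b, Atp5d and Atp5md lost the call without any of the 4 arrays at 6 months, and Atp5mpl without 3 of them.

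The difference of the genotype effect between the ages passed for 0 of the 88 genes, where 4.45% of all genes passed (2.56% with a more positive and 1.89% with a more negative effect at 6 months). For the 88, limma gave an unadjusted p below 0.05 for 9, against 27.0% of all genes. The lowest adjusted p was that of Ndufa4l2 (-0.66 ± 0.17, adjusted p = 0.062), followed by Ndufa11 (-0.49 ± 0.13, adjusted p = 0.066) and Cox4i2 (-0.77 ± 0.22, adjusted p = 0.078). The dimmer second probe set of Ndufa11 differed by -0.40 at 2 months and -0.15 at 6 months. For Ndufa11 the more negative effect at 6 months was thus seen only in the brighter probe set. On the higher side Atp5d (0.73 ± 0.25, adjusted p = 0.12) and Ndufb7 (0.56 ± 0.21, adjusted p = 0.15) had the largest statistics. So an effect called at 6 months and not at 2 months was not shown to differ between the ages for any of these genes. With the arrays quantile-normalised again, or with a trended and robust variance, 2 genes passed, both with a more negative effect at 6 months.

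Between 2 and 6 months, WT annulus gave 0 calls by limma, of the 88 genes and of all genes tested (0.000%). An unadjusted p below 0.05 was found for 11 of the 88 and for 13.3% of all genes. The arrays of both ages stood apart upward in 30 genes, against 13.5% of all genes, and downward in 11, against 35.9%. The largest statistics were those of Ndufs7, a core complex I subunit, at 11.64 and 11.54 in 2 month WT and 11.94 and 11.97 in 6 month WT (0.37 ± 0.10, adjusted p = 0.26), and of Cox8b (1.84 ± 0.51, adjusted p = 0.27). In ENT1-null annulus 4 of the 88 passed (4.55%), against 22.2% of all genes tested, and 12 had an unadjusted p below 0.05, against 35.1%. The arrays stood apart upward in 30 genes, against 30% of all genes, and downward in 10, against 29.8%. Ndufa4l2 fell by 0.65 (SE 0.12, adjusted p = 0.0091), Cox4i2 fell by 0.69 (SE 0.16, adjusted p = 0.018), Ndufa11 fell by 0.48 (SE 0.09, adjusted p = 0.010) and Atp5h rose by 0.34 (SE 0.10, adjusted p = 0.045). Leaving out 2 month ENT1-null replicate 1 gave a count of 2. Leaving out 6 month ENT1-null replicate 2 gave 0, as did the neutrophil and erythroid covariate. Atp5h was no longer called without 1 of the 6 month WT arrays either, where the count was 3.

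Related mitochondrial genes were read from pathway lists, and their calls went both ways. The counts at 6 months stand against 38.8% of all genes tested called, 21.2% higher and 17.6% lower. The 10 mitochondrially encoded genes measured gave 0 calls at 6 months, with a median of -0.10. Their mean level was 12.82 and 12.79 in 6 month WT and 12.78 and 12.60 in 6 month ENT1-null. These levels are near the top of the range, where the highest value on any array was 13.80. Whether this narrows their differences was not tested. In 6 month ENT1-null all 10 were lower on replicate 2 than on replicate 1. ND2, a core subunit of complex I, was at 13.04 and 13.07 in 6 month WT and 13.00 and 12.75 in 6 month ENT1-null. Of 21 complex IV assembly factors 5 rose and 2 fell (33.3% called). Pet100, a small assembly factor, was at 7.46 and 7.32 against 8.02 and 8.15 (0.70 ± 0.09, adjusted p = 0.0011), and Higd1a, a partner of complex IV induced in low oxygen, at 8.85 and 9.16 against 8.16 and 7.72 (-1.06 ± 0.16, adjusted p = 0.0018). Of 17 other assembly and inhibitor genes 3 rose and 3 fell (35.3%). Atpif1, the inhibitor of ATP synthase, was at 9.21 and 8.89 in WT against 10.08 and 10.31 in ENT1-null (1.14 ± 0.14, adjusted p = 0.00081). In both Pet100 and Atpif1 the groups were well apart.

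Of 7 carriers and kinases that exchange ADP and ATP, 2 rose and 2 fell (57.1% called, against 38.8% of all genes tested). Slc25a5, the adenine nucleotide carrier of most dividing cells, was at 10.46 and 10.14 in 6 month WT and 11.62 and 11.68 in 6 month ENT1-null (1.35 ± 0.17, adjusted p = 0.0010). Slc25a4, the carrier of heart and muscle, was at 8.77 and 8.81 against 8.02 and 7.95 (-0.81 ± 0.17, adjusted p = 0.0073). All 15 mitosis genes measured rose at 6 months, with a median of 2.30, as did all 18 neutrophil (2.60) and all 8 erythroid markers (2.06). The part of the neutrophil and erythroid markers in the results on respiratory chain genes was not tested beyond the covariate. The mitosis genes were not used as a covariate, and their part was not tested. Of 17 citric acid cycle genes 3 rose and 0 fell, Dlst by 0.63 among them, and of 68 mitochondrial ribosome genes 12 rose and 0 fell, Mrpl34 by 0.59 among them. In both lists 17.6% rose, below the 21.2% of all genes called higher. Of 13 electron carrier genes, Coq10a, a coenzyme Q binding protein, fell by 0.62, the only call. Of 19 regulators of mitochondrial biogenesis only Nrf1, the factor whose motif was searched above, was called, at 8.36 on both 6 month WT arrays and 8.61 and 8.60 in ENT1-null (0.24 ± 0.08, adjusted p = 0.040). Of 15 glycolysis genes 1 rose and 5 fell (40% called): Hk1, a hexokinase, rose by 0.70, and Pfkp, a phosphofructokinase, fell by 0.98.

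**Figure D4:**
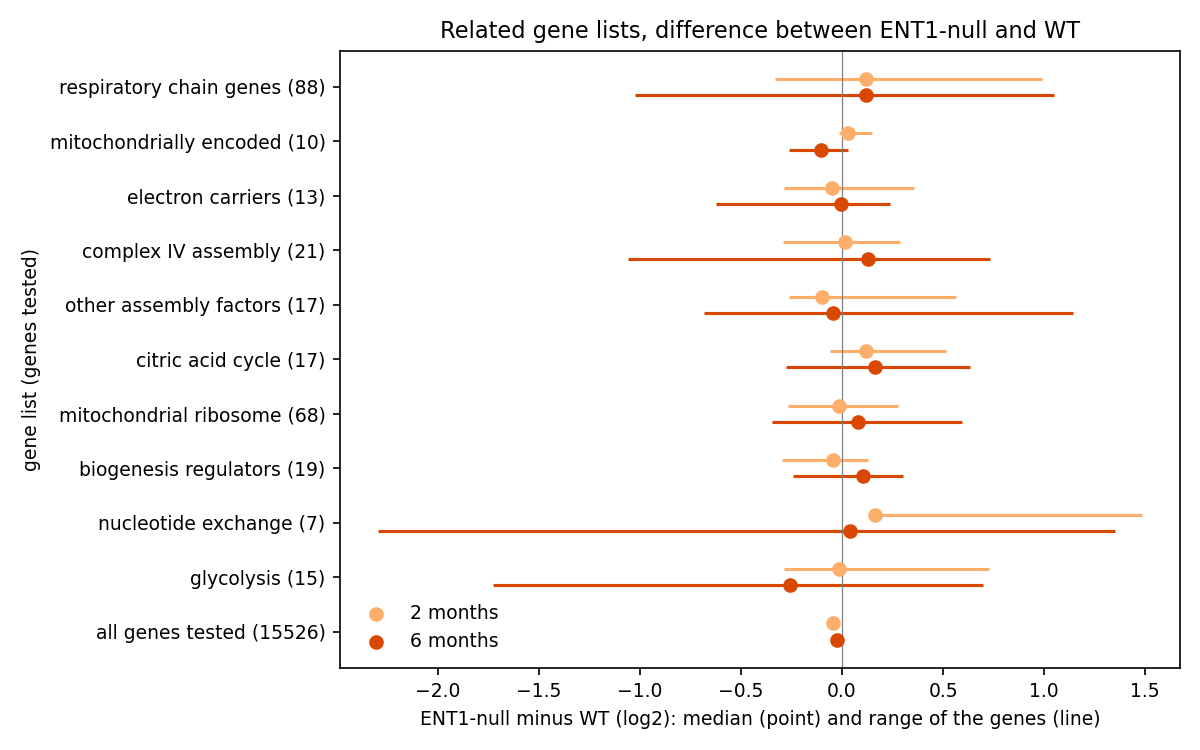
Median (point) and range (line) of the difference between ENT1-null and WT (log2, horizontal axis) for the respiratory chain genes and related lists at 2 and 6 months, with the median alone for all genes tested. At 6 months the medians run from -0.26 for glycolysis to 0.16 for the citric acid cycle, with the respiratory chain genes at 0.12.

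Across the ages, 50 of the 88 genes were above 0 at both and 12 below 0 at both, while 16 were above 0 at 2 months and below at 6 months and 10 the reverse. Of the 13 genes that rose at 6 months, 12 also had a positive difference at 2 months, all but Atp5d (-0.05). Called or not, 66 of the 88 genes (75%) were above 0 at 2 months. Of the 4 that fell, Ndufa4l2 and Sdhaf4 (-0.18) were also below 0 at 2 months, and Cox4i2 (0.07) and Ndufa11 (0.22) were not. For Ndufa11 and Atp5d the sign at 2 months depends on the probe set. Their dimmer second probe sets differed by -0.40 (Ndufa11) and 0.20 (Atp5d) at 2 months.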

How the data were processed

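The authors deposited log2 expression values of 41345 probe sets on 8 Affymetrix arrays, made with RMA per the submitters' processing notes. No version or settings of RMA are given there, and probe-level files were not used. Array medians lay between 6.77 and 6.82, so the values were not normalised again. Platform annotation gave 1 symbol for 23521 probe sets, several for 1814 and none for 16010. The brightest probe set stood for each of 22180 genes, and those with a mean of at least 6.21, the 30th percentile, were tested (15526).

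limma 3.58.1 in R 4.3.3 was fitted to the 4 groups together (lmFit and eBayes, checked on simulated data first), with p-values adjusted by Benjamini-Hochberg over all genes tested and a threshold of 0.05. Differences are on the log2 scale; SE is the moderated standard error. Alternatives were no filter or the 50th percentile, quantile normalisation again, median centring, all probe sets, a replicate block, trended and robust variance, marker levels as covariates, the compared groups alone, and each array left out.

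The members and the lists were chosen with earlier results of these data known. Genes named were, per comparison, up to 6 rises and 6 falls among calls whose arrays did not overlap, or the 4 highest and 4 lowest statistics where fewer passed. Isoform, partner and core subunit lists, the largest statistic of each complex and 2 genes per related list were added. The remaining genes called at 6 months, and genes given by their place among probe sets, were named after their values were seen. Array intensity has no true zero, and the number of arrays limits precision. Whether probe sets distinguish near-identical pseudogene copies was not analysed here. Promoter sequences are RefSeq's on GRCm38.p6.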

Additional observations from a re-analysis of the deposited data

How the results depend on the processing

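At 2 months the count of called respiratory chain genes was 0 under each alternative run, so it says nothing of stability beyond the threshold; the same held for the change with age in WT. At 6 months the 17 calls were 14 to 18 under both other filters, renewed quantile normalisation, median centring, all probe sets, trended variance, the muscle covariate and the compared groups alone, and 4 to 19 over the fits without an array. Same-numbered arrays did not deviate together in every pair of groups (correlations from -0.395 to 0.415, 0.415 between the 2 month groups and -0.148 between the 6 month groups), so the numbers were not taken to pair samples; with a replicate block 13 genes were called at 6 months, and 0 at 2 months. Renewed quantile normalisation and trended variance each gave 2 calls for the difference between the ages.

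With the neutrophil and erythroid covariate 0 genes were called at 6 months and 0 for age in ENT1-null, and the median difference was -0.042 at 2 and -0.095 at 6 months. At 2 months it turned Cox4i1 (-0.11), Cox6b1 (-0.029), Cox7a1 (-0.076), Cox8a (-0.043), Cox8b (-0.11) and Ndufa4 (-0.062). At 6 months it turned Atp5a1 (-0.16), Cox4i1 (-0.22), Cox5a (-0.32), Cox6b1 (-0.095), Ndufa4 (-0.21), Ndufs7 (0.045), Ndufv1 (-0.22), Ndufv2 (-0.17), Sdha (-0.11), Sdhb (-0.41), Uqcrc1 (-0.22) and Uqcrfs1 (-0.28). With the muscle covariate the median was 0.31 at 6 months, 0.27 for the difference between the ages, -0.019 for age in WT and 0.23 for age in ENT1-null. It turned Cox7a1 (0.54) and Cox8b (0.57) at 6 months, Cox7a1 (0.45) and Cox8b (0.20) for the difference between the ages, Cox7a1 (0.45) and Cox8b (0.92) for age in ENT1-null, Cox7a1 for age in WT (-0.0080) and Ndufs3 at 6 months (0.047). Since the groups account for most of each covariate, the cause was not tested. At 6 months renewed quantile normalisation turned Ndufs1 (-0.0099), Sdha (-0.10) and Sdhb (-0.058), and median centring turned Ndufs3 (0.011).

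Over the fits without an array the median ran from 0.0094 to 0.22 at 2 months and from -0.036 to 0.13 for the difference between the ages, and the count for age in ENT1-null from 0 to 6. Signs turned, by range, for Cox4i2 (-0.062 to 0.20), Cox7a1 (-0.060 to 1.37) and Cox7a2 (-0.012 to 0.22) at 2 months, and for Ndufs1 (-0.11 to 0.22), Ndufs3 (-0.057 to 0.0089), Ndufs7 (-0.19 to 0.040), Sdha (-0.068 to 0.071) and Sdhb (-0.053 to 0.11) at 6 months. They also turned for Cox4i2 (-0.050 to 0.21) and Ndufa4l2 (-0.11 to 0.12) for age in WT, and for Cox7a1 (-1.27 to 0.16) and Cox8b (-0.87 to 0.51) for age in ENT1-null. A group left with 1 array was assumed to vary like the others. For a comparison that does not use a group, leaving out either array of that group gives the same fit. The fits without an array are therefore not all separate checks. The 2 arrays per group limit every comparison.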

Other observations

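Of the 90 genes, 10 had more than 1 single-symbol probe set, and the second ones did not always follow the brighter ones at 6 months. For Cox5b, a nuclear subunit of complex IV, the brighter probe set differed by 0.58 and the other, just above the filter level, by -0.06. For Cox7b the values were 0.19 and 0.53, the second from a probe set below the filter level. For Atp5g2, a c subunit of the ATP synthase ring, both probe sets differed by 0.20. The files do not say which probe set reads which copy of a gene. All 3 were picked with their values in view.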
